A study of Homo sapiens with 6 samples.

Results

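The short arm of human chromosome 16 holds 919 rows of the deposited gene table, taken as rows that start before the centromere. Of these, 539 had at least 60 reads summed over the 6 libraries, and these 539 genes are described here, out of 20061 rows that reach the same sum in the table of 35784. Each member was taken by position and by that sum, with starts from 14381 to 35169692 on GRCh38. The arm itself was chosen with earlier results of these data known. The members comprised 365 protein-coding genes, 98 long noncoding RNA genes and 76 rows of other kinds, such as pseudogenes. The other 380 rows of the arm were under the sum, and 51 of those were at 0 in every library. The 4 rows just inside the minimum had sums of 61 to 64 and log2 fold changes (knockout minus control) from -1.83 to 0.18. The 4 just outside had sums of 57 to 59, and the 3 of them that were tested had values from -1.94 to 0.04.

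Total RNA had been sequenced from NCI-H1299 cells, an established line of human lung carcinoma given as LUAD (lung adenocarcinoma) in the labels. There were 3 control libraries, named KO-NC in the titles and lenti in the descriptions, and 3 libraries from cells in which the RNA-binding protein gene IGF2BP3 had been targeted with a lentiviral CRISPR vector. Per the labels' protocols, infected cells were put under puromycin, and colonies of single cells were expanded. The labels do not say which colony or culture gave each library, so p-values measure only the spread between these libraries, and the knockout cannot be told apart from a difference between colonies.

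The short arm is a gene-rich arm. It carries the alpha-globin genes near its end, the tuberous sclerosis gene TSC2 beside the polycystic kidney disease gene PKD1, the acetyltransferase gene CREBBP, and several clusters of zinc finger genes. Long, nearly identical segmental duplications lie between its genes, and recombination between such copies is the known origin of the recurrent deletions and duplications of the 16p13.11 and 16p11.2 intervals.

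Promoters of 3 members are shown because these genes mark the range of behaviour on the arm: the deepest fall among members with a symbol and at least 5 CPM in the higher group, the largest rise by the same rule, and the most abundant message that fell. Each runs from 250 bases before to 50 bases after the start that RefSeq gives (GRCh38.p14), 5′ to 3′, with every CG dinucleotide in capitals. SULT1A4 encodes a sulfotransferase of catecholamines, ZNF764 a zinc finger protein, and ALDOA the glycolytic enzyme aldolase A. Their intervals are chr16:29459663-29459962 on the plus strand, chr16:30558325-30558624 on the minus strand and chr16:30064029-30064328 on the plus strand.
SULT1A4: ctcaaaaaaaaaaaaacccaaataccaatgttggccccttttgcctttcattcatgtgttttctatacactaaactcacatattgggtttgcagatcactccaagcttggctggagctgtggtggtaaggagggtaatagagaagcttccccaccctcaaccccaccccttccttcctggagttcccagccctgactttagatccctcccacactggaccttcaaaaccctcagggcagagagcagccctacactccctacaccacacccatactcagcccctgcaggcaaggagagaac
ZNF764: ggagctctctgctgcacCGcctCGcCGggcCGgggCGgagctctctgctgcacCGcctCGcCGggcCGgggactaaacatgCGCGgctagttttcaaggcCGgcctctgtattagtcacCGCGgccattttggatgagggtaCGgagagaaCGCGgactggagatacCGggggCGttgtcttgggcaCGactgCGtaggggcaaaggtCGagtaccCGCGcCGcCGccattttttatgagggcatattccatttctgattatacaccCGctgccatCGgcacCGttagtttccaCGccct
ALDOA: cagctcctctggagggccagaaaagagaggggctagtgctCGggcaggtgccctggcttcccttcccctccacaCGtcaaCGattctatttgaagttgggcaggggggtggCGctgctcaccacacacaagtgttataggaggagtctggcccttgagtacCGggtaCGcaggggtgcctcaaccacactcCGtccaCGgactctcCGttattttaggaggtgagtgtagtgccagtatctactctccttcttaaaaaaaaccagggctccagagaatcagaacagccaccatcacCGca
The SULT1A4 stretch had no CG dinucleotide (0 in 300 bases), the ALDOA stretch had 10 and the ZNF764 stretch had 30. The promoter of SULT1A3, a near-identical copy of SULT1A4 on the same arm, differed from it at 0 of 300 positions.

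Depth and the target were checked first. Library totals ran from 67674223 to 80810319 counts, and 3 counts, taken as the floor, stood for 0.0389 to 0.0435 CPM (read counts scaled to a common library total, adjusted by TMM), for counting error only. IGF2BP3 was at 58.8, 51.6 and 54.1 CPM in the controls and at 39.9, 25 and 22.6 CPM in the knockout, a lower but still present message (log2 fold change -0.91, adjusted p = 0.017). The keratins KRT7, KRT8 and KRT18, markers of epithelium, were at 1260 to 4870 CPM in every library, and EPCAM was at 3.36 to 4.84 CPM. KRT8 and KRT18 fell by 0.97 and 0.83 on the log2 scale (adjusted p = 8.2e-04 and 6.4e-04), while KRT7 and EPCAM were not called (adjusted p = 0.39 and 0.16). The epithelial cadherin CDH1, whose gene lies on the long arm of chromosome 16, was at 160 CPM in the controls and fell by 1.54 on the log2 scale to 55 CPM (adjusted p = 0.0038). The part of these epithelial markers in the results was not tested. The lung markers NKX2-1, SFTPB, SFTA2 and SFTPC were at or near 0, none of them above 0.736 CPM in any library, and NAPSA was at 0.586 to 2.2 CPM, so the defining markers of the labelled adenocarcinoma lineage were nearly absent in both groups. The endothelial PECAM1 and CDH5, the blood genes PTPRC and HBB and the fibroblast genes DCN and PDGFRB were at 0.769 CPM or less, COL1A1 was at 6.02 to 11.3 CPM, CD68 was at 8.91 to 24.7 CPM, and the mesenchymal VIM was at 1000 CPM or more in all 6. VIM was not called (log2 fold change 0.11, adjusted p = 0.79). The mesenchymal CDH2 went from 127 to 71.2 CPM without a call (-0.83, adjusted p = 0.059). ZEB1, also mesenchymal, rose from 27.2 to 36.4 CPM (0.42, adjusted p = 0.019).

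Genes of the short arm were lower in the knockout as a group. Of 528 members tested, 210 fell (39.8%, against 11.5% of all 20134 tested genes) and 3 rose (0.568%, against 8.21%), by edgeR's quasi-likelihood test with a Benjamini-Hochberg adjusted p under 0.05 over all tested genes. The median member stood at 72.1% of its control level (median log2 fold change -0.47, quartiles -0.75 and -0.20), where the median over the other 19606 genes was 0.01 and their quartiles were -0.33 and 0.30. The quartiles of the members were 0.55 log2 units apart and those of other genes 0.63, so the members were spread about as widely as other genes around a lower centre. A negative value was seen in 445 members (84.3%), and all 3 knockout libraries lay below all 3 controls in 285 members (54%, against 21.5% of all tested genes). The reverse held for 11 members (2.08%, against 19.7%).

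Each knockout library showed the shift. Reads on the members made up 2.1%, 2.09% and 2.1% of the control libraries and 1.59%, 1.52% and 1.51% of the knockout libraries. The 2 groups did not overlap (2.1 ± 0.00469% against 1.54 ± 0.0461%). Over the 390 members with a mean of at least 1 CPM, the median log2 ratio to the control mean was -0.44, -0.50 and -0.49 in the knockout libraries and between -0.00 and 0.01 in the controls. For 14173 other genes it was 0.03, 0.01 and 0.00 in the knockout. The genes of the long arm of the same chromosome, 286 at that level, stood at -0.45, -0.49 and -0.49, next to the short arm in each library. In the fit, the long arm had 164 of 408 genes lower, 3 higher and a median of -0.51.

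**Figure D1:**
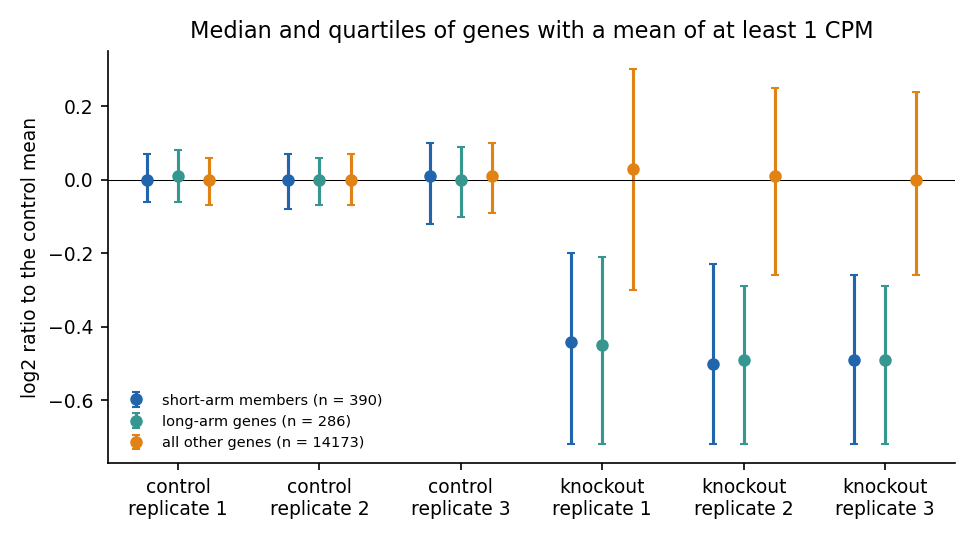
Median (points) and quartiles (bars) of the log2 ratio to the control mean in each of the 6 libraries, for 390 short-arm members, 286 long-arm genes and 14173 other genes with a mean of at least 1 CPM. The control medians lie at 0, and the short-arm medians of the knockout libraries lie at -0.44, -0.50 and -0.49 while those of other genes stay between 0.00 and 0.03.

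The shift ran along the whole arm. Cut into 21 runs of 25 neighbouring tested members, every run had a median below 0, from -0.22 in the run nearest the end of the arm (WASH4P to WFIKKN1) to -0.67 in the run from XYLT1 to GPRC5B, and 19 of the 21 were at -0.4 or lower. Even the run with the median nearest 0 had 12 of 25 members lower. The last 3 tested members before the centromere, too few for a run, had a median of 0.17. The first 3 runs of the long arm stood at -0.56, -0.78 and -0.70. Members read from the plus strand had a median of -0.50 (120 of 266 lower) and those from the minus strand -0.46 (90 of 262 lower).

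**Figure D2:**
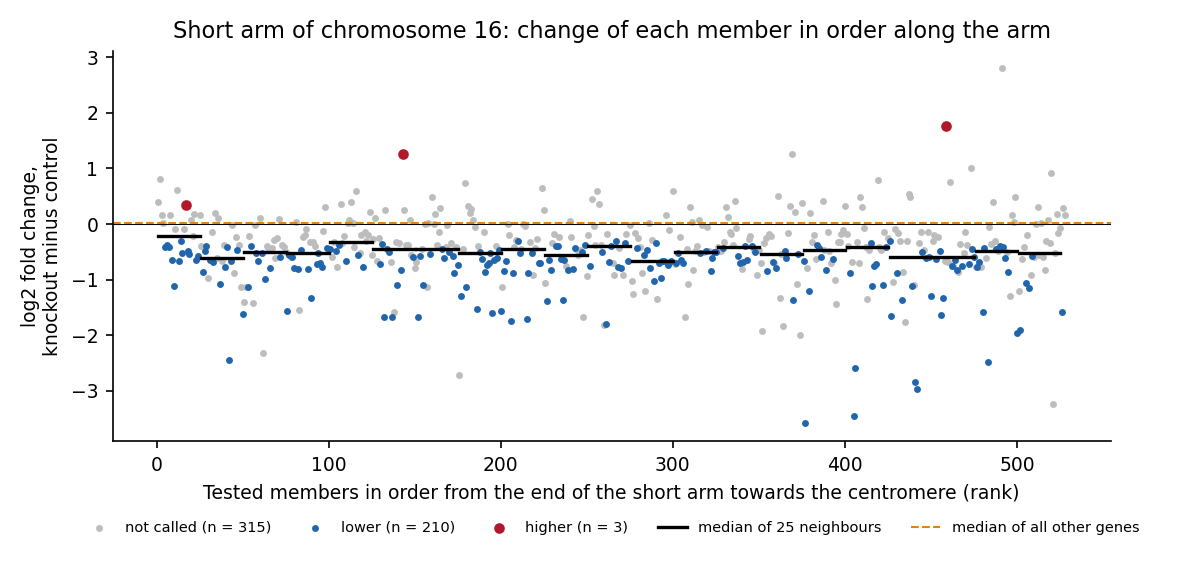
log2 fold change of the 528 tested members against their rank in order along the arm, coloured by call (210 lower, 3 higher, 315 not called), with the median of each run of 25 neighbours as a black bar and the median of all other genes as a dashed line. The 21 black bars lie between -0.67 and -0.22, all under the dashed line at 0.01.

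The median change was below 0 at every level, and the share of members called lower was larger at higher levels. Members with a mean under 1 CPM had a median of -0.39 and only 4 of 138 were called lower. Those at 1 to 10 CPM had a median of -0.46, with 35 of 132 lower. At 10 to 50 CPM the median was -0.50 with 104 of 163 lower, and at 50 CPM or more it was -0.47 with 67 of 95 lower. The quartiles were 0.97 log2 units apart in the lowest bin, 0.74 at 1 to 10 CPM, 0.32 at 10 to 50 CPM and 0.38 in the highest bin, so the spread was smallest at 10 to 50 CPM. Quartiles of other genes also lay further apart at low levels, by 1.18, 0.86, 0.44 and 0.38 in the same order of bins. Other genes had medians of -0.01, -0.00, 0.01 and 0.04 in the same 4 bins, with 188 of 5433, 560 of 4439, 755 of 5446 and 598 of 4288 lower. The highest bin minus the lowest came to -0.08 on the log2 scale. It was -0.37 on log2(FPKM + 1), and its sign turned to 0.04 with limma-voom, 0.01 with a replicate block and 0.02 without knockout replicate 3, so no order of the bins is given.

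**Figure D3:**
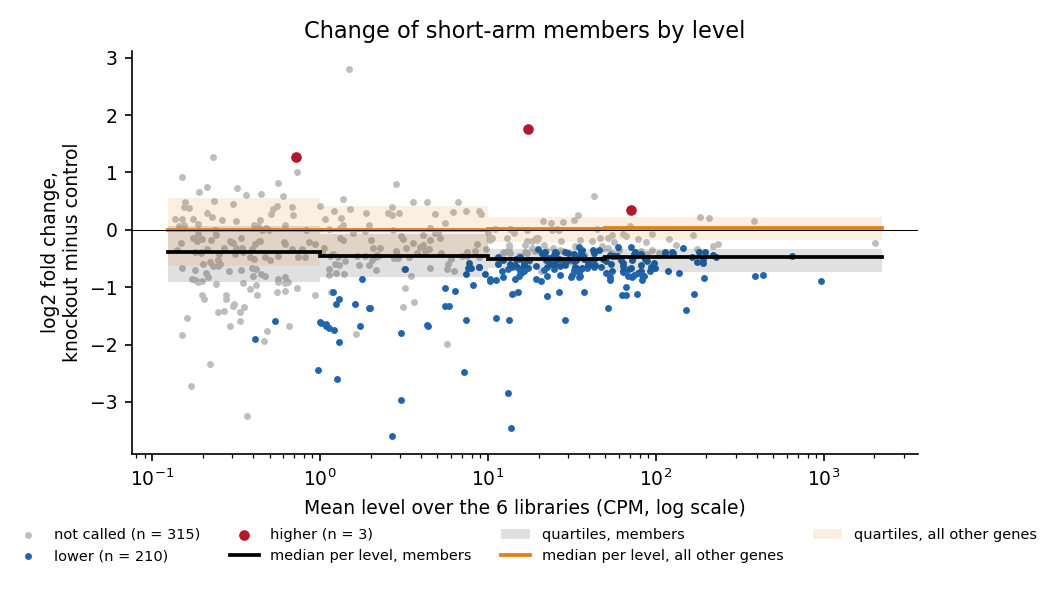
log2 fold change of the 528 tested members against the mean level over the 6 libraries (CPM, log axis), with medians (lines) and quartiles (bands) per level bin for members (black) and all other genes (orange). The black lines lie between -0.50 and -0.39 and the orange lines between -0.01 and 0.04, and the black band is wider in the 2 bins under 10 CPM (0.97 and 0.74) than in the 2 above (0.32 and 0.38). The orange band is likewise wider in the 2 bins under 10 CPM (1.18 and 0.86) than in the 2 above (0.44 and 0.38).

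Medians were below 0 in each gene type and length class. Among protein-coding members 192 of 362 fell and 3 rose, with a median of -0.50. Of the other protein-coding genes 13.4% fell. Among long noncoding RNA members 6 of 95 fell (6.32%, near the 4.95% of other long noncoding RNA genes), with a median of -0.39, and among the rest 12 of 71 fell, with a median of -0.35. Genes spanning less than 10 kb had a median of -0.45 and a spread between quartiles of 0.72, and those of 30 kb or more had -0.53 and 0.36. The 72 tested members of families with near-identical copies on the arm, whose reads may be split between copies, had a median of -0.42 with 21 lower. Many members share their span with another row: 301 of the 528 overlap one, and since the strand setting of the counting is not stated in the labels, reads of such pairs cannot be told apart. The 227 members with no such overlap had a median of -0.45, with 92 lower and 2 higher.

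Among the abundant messages of the arm, levels per length are given in FPKM. RPS2, a protein of the small ribosomal subunit and the member with the highest mean, was at 864 ± 55.8 FPKM in the controls and 748 ± 61.1 in the knockout (SD, n = 3 each, as for all such values). Its change did not pass the test (log2 fold change -0.23, adjusted p = 0.2), although it was called lower without knockout replicate 1 (-0.32, adjusted p = 0.02), and near-identical copies of RPS2 elsewhere make its count uncertain. ALDOA was next at 308 ± 9.61 FPKM, against 168 ± 53 in the knockout. In counts it read 1203, 1265 and 1285 CPM in the controls and 938, 642 and 452 CPM in the knockout, so every knockout library was lower but the 3 were far apart (log2 fold change -0.89, SE 0.23, adjusted p = 0.032). The call was lost without control replicate 1, 2 or 3 or knockout replicate 2, and over the 15 alternatives the adjusted p reached 0.1. ARL6IP1, which shapes the endoplasmic reticulum membrane, fell from 130 ± 3.97 to 76 ± 11.8 FPKM (adjusted p = 0.0068). TUFM, the mitochondrial elongation factor Tu, fell from 107 ± 1.71 to 80.1 ± 3.76 FPKM (adjusted p = 0.01), a call lost without control replicate 2 (adjusted p = 0.055). ATP6V0C, the proteolipid ring subunit of the vacuolar proton pump, fell from 70.6 ± 2.61 to 48.9 ± 4.02 FPKM (adjusted p = 0.0074).

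A handful of members fell much further. In all, 45 of the 528 tested members were called lower with at least a 2-fold change, where 4.68% of all tested genes were. SULT1A4 (ENSG00000213648, chromosome 16 from 29459913 to 29464966, a protein-coding gene on the plus strand) was at 21.3, 27.9 and 26.3 CPM in the controls and at 0.573, 3.81 and 2.53 CPM in the knockout. That left 9.15% of the control mean (log2 fold change -3.45, SE 0.56, adjusted p = 0.0048), and the groups did not come near each other. Its copy SULT1A3 (ENSG00000261052, from 30199228 to 30204310, plus strand) was at 32.6, 18.1 and 18.7 CPM in the controls and 4.53, 2.17 and 2.89 CPM in the knockout (log2 fold change -2.85, adjusted p = 0.0012). SULT1A1, the phenol sulfotransferase of the same family, was lower in level, at 3.73, 4.87 and 6.19 CPM against 0.248, 0.312 and 0.661 CPM (log2 fold change -3.59, adjusted p = 0.0011). The 3 sulfotransferase rows fell together. Their sequences are close, and SULT1A3 and SULT1A4 overlap read-through rows that join them to SLX1A and SLX1B, so the split of reads between rows is uncertain.

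Other deep falls spanned unrelated roles. HSD3B7, an enzyme of bile acid synthesis, went from 11.8, 12.2 and 12.6 CPM to 3.57, 1.8 and 1.21 CPM (log2 fold change -2.48, adjusted p = 0.0033). The cytokine gene IL32 fell to 31.4% of control (adjusted p = 0.0025) and DOC2A, a calcium sensor of vesicle release, to 31.9% (adjusted p = 0.0084). ORAI3, a pore subunit of store-operated calcium channels, fell from 19.9 ± 0.401 to 6.66 ± 1.9 CPM (adjusted p = 0.0022). PPL, the desmosome-associated periplakin, read 46.1, 42.8 and 41 CPM in the controls and 7.46, 16.8 and 19.4 CPM in the knockout (adjusted p = 0.01). SPSB3, a substrate receptor of a cullin ubiquitin ligase, fell to 33.7% of control (adjusted p = 0.0074). The surface glycoprotein mesothelin, MSLN, named here after its values were seen, fell from 1.64 ± 0.456 to 0.303 ± 0.158 CPM (log2 fold change -2.44, adjusted p = 0.0093).

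To find members that departed from the shared fall, a second edgeR fit scaled the libraries on the short-arm members alone, so that its log2 values are relative to the arm. In that fit 423 of the 528 members were not called, 46 were called above the arm and 59 below it. Of these, 23 of the 46 and 28 of the 59 were called in all 6 fits that left out a library, and the 59 became 35 without control replicate 1 and 37 without control replicate 2. Of all 20134 tested genes, 45.8% lay above and 5.02% below in this scaling, because genes of other chromosomes, as a group, had not shifted with the arm. Long-arm genes had shifted, and of the 408 tested 35 lay above and 53 below. All 59 members below were also among the 210 called lower in the first fit. Of the 46 above, 3 had been called higher, 43 had not been called and 0 had been called lower, and 31 had a log2 fold change of at least 0 against the controls. Protein-coding genes made up 40 of the 46 and 54 of the 59, beside 362 of all 528 tested members. Among the 46, 22 share their span with another row and 6 have near-identical copies. For the 59 these counts were 33 and 8, and for all 528 tested members 301 and 72.

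The 3 members that rose lay far apart, so their nearest tested protein-coding neighbours could only be called lower or not called. ZNF764 (ENSG00000169951, from 30553764 to 30558374, a protein-coding gene on the minus strand) was at 6.75, 9.44 and 7.46 CPM in the controls and at 27.5, 26 and 26.4 CPM in the knockout. This was 338% of control (log2 fold change 1.76, SE 0.14, adjusted p = 2.4e-04; 2.24 relative to the arm), with the knockout libraries close together and no overlap. In the same zinc finger cluster ZNF747, ZNF768 and ZNF689 fell, by 1.33, 0.49 and 0.75 on the log2 scale, while ZNF688 and ZNF785, next to it, were not called (-0.68 and 0.75). NME4, a nucleoside diphosphate kinase of mitochondria (ENSG00000103202, from 396725 to 400754, plus strand), was at 57.5, 69 and 60.7 CPM against 75.9, 83.8 and 79.7 CPM (log2 fold change 0.35, SE 0.09, adjusted p = 0.028; 0.84 relative to the arm). Its flanking genes PGAP6 and DECR2 fell by 0.53 and 0.49. KREMEN2, a DKK receptor that dampens WNT signalling, was low, at 0.332, 0.551 and 0.391 CPM against 1.06, 1.01 and 0.985 CPM (log2 fold change 1.26, adjusted p = 0.037), and its span overlaps that of PKMYT1. On one side its neighbours FLYWCH2 and FLYWCH1 fell by 1.09 and 0.83. On the other, PKMYT1, PAQR4 and TNFRSF12A were not called (0.25, -0.37 and 0.07). ZNF764 was the 1 rise called in all 6 fits that left out a library. KREMEN2 lost its call without any 1 of the 6 libraries, with adjusted p from 0.051 to 0.11. NME4 lost its call without control replicate 1 or 3 or knockout replicate 2 or 3, and over the 15 alternatives its adjusted p reached 0.12.

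The next members above the arm were taken among those whose higher group reached 20 CPM and whose groups were fully separate in the arm scaling, and they were not called against the controls. Outside that rule, ASPHD1 at a lower level (1.28 relative to the arm) and GPRC5B with overlapping groups (1.08), both named after their values were seen, stood further above. PKMYT1, the inhibitory kinase of CDK1, was at 33.4, 34.4 and 26.8 CPM in the controls and 45.5, 34.1 and 32.6 CPM in the knockout, with overlap between the groups (log2 fold change 0.25, adjusted p = 0.3; 0.73 relative to the arm, adjusted p = 0.0041). CCP110, which caps centrioles, was at 31, 31.4 and 29.8 CPM against 37.1, 34.6 and 32.2 CPM (0.17, adjusted p = 0.2; 0.65 relative to the arm, adjusted p = 5.2e-04), and its standard error of 0.08 was the lowest among the genes described in this group. EIF3C, a subunit of the translation initiation factor EIF3, was at 180, 192 and 209 CPM against 293, 191 and 183 CPM. Only knockout replicate 1 lay above the controls, and the same library was the high one for PKMYT1, for EIF3CL and for the RNA polymerase III subunit POLR3K. Over the 15 alternatives the log2 fold change of PKMYT1 against the controls ran from 0.09 to 0.34. Without knockout replicate 1 the log2 fold changes against the controls turned negative, to -0.08 for EIF3CL, -0.04 for EIF3C and -0.03 for POLR3K. Relative to the arm, EIF3CL lost its call without any 1 of the 3 control replicates, with adjusted p up to 0.063. EIF3C and EIF3CL are near-identical copies.

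Below the arm lay several abundant genes. LITAF, a membrane protein of late endosomes (ENSG00000189067, from 11547722 to 11629210, minus strand), was at 216, 207 and 235 CPM in the controls and 75.8, 84.4 and 91.7 CPM in the knockout. Its fall to 38.3% of control was well outside the spread in either group (log2 fold change -1.39, SE 0.09, adjusted p = 1.1e-04; -0.90 relative to the arm, adjusted p = 3.2e-04). GLIS2, a Krüppel-like zinc finger transcription factor, read 90.1, 83.1 and 84.2 CPM against 40.5, 37.9 and 39.6 CPM (log2 fold change -1.13, adjusted p = 8.6e-05). MVP, the major vault protein, went from 231 ± 13.2 to 106 ± 16.6 CPM (adjusted p = 7.2e-04), and FAM234A, next to the alpha-globin genes, from 105 ± 1.04 to 48.8 ± 8.19 CPM (adjusted p = 8.6e-04). The phosphatase CPPED1 was uneven, at 75.2, 76.5 and 74.3 CPM against 43.6, 21.7 and 21.8 CPM. It stayed lower than the controls in every fit that left out a library, but its departure from the arm was lost without control replicate 2 or knockout replicate 2 or 3 (adjusted p up to 0.057), and that of PPL without control replicate 1 or 2 (up to 0.061).

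Promoter letters were counted for the same groups. RefSeq promoters were matched for 299 tested members, with a median of 29 CG dinucleotides per 300 bases, against 14 over all 35116 promoters of that length in the table. The median was 29 for the 33 matched members above the arm, 25 for the 45 below and 29 for the 221 others. Matches on either strand to TATAAA, the TATA box, were found in 3.34% of member promoters and 11.5% of all promoters. Those to TTTGGCGC, an E2F element, were found in 0.669% and 0.652%. The 299 belong to genes with enough reads to be tested. The 35116 were taken whatever the expression and were not reduced to 1 per symbol. The sets are therefore unlike, and a trait of the arm cannot be read from them. None of the 3 promoters printed above holds either word, which says only that the letters are not in that window.

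By function, 17 lists of short-arm genes were counted, and all 17 had a median below 0, from -0.67 for channels and transporters to -0.16 for cell cycle and mitosis. The lists were drawn up with earlier results of these data known. Of the 227 tested genes in any list 136 were lower (59.9%, median -0.49), and of the 301 in none 74 were (24.6%, median -0.46), so the count of each list stands beside 59.9% over all lists and 39.8% over all members. The mitochondrial list had 19 of 23 genes lower and 1 higher, NME4, with a median of -0.52. UQCRC2, a core subunit of respiratory complex III, was at 248, 254 and 242 CPM against 133, 147 and 135 CPM, without overlap (log2 fold change -0.84, adjusted p = 3.1e-04). GFER, the sulfhydryl oxidase of mitochondrial import, and TMEM186, an assembly factor of complex I, fell by 0.81 and 0.89 (adjusted p = 0.0024 for each). In the DNA repair list 10 of 12 fell, with a median of -0.48. The falls include both SLX1A and SLX1B, near-identical copies whose reads may be split between them. ERCC4, the XPF endonuclease, fell from 27.5 ± 1.19 to 17.5 ± 0.816 CPM (adjusted p = 0.0024) and NSMCE1, a subunit of the SMC5/6 complex, from 34 ± 1.82 to 19.7 ± 1.6 CPM (adjusted p = 0.0013). SLX4, the scaffold that binds ERCC4, was at 25.5, 25.6 and 28.2 CPM against 25.8, 24.6 and 28.4 CPM, 2 sets that overlap (log2 fold change -0.01; 0.47 relative to the arm, adjusted p = 0.0039).

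Regulators of chromatin fell in 16 of 27 cases, with a median of -0.46. CREBBP, the histone acetyltransferase, was at 106, 102 and 114 CPM in the controls and 67.4, 53.2 and 55.1 CPM in the knockout (log2 fold change -0.88, adjusted p = 0.0013), the 1 gene of this list that lay below the arm itself. GLYR1, a nucleosome-binding factor, fell by 0.62 and FBXL19, which binds CpG islands, by 0.68 (adjusted p = 0.0015 for each). Zinc finger genes had 12 of 26 lower and 1 higher, ZNF764, with a median of -0.45. In the lists for signalling, 12 of 20 kinases, adaptors and scaffolds fell (median -0.46), among them PDPK1, the kinase upstream of AKT, from 94.1 ± 2.15 to 54.6 ± 5.72 CPM (adjusted p = 0.001), a gene with a near-identical copy. ADCY9, an adenylyl cyclase, fell by 0.74 (adjusted p = 0.0024). Of 10 tested cytokine and immune genes 4 fell (median -0.43), including the integrin ITGAX at 2.08 ± 0.45 to 0.532 ± 0.0901 CPM (adjusted p = 0.0036).

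Membrane and lysosome genes were among the lower lists. Of 26 genes of endolysosomes and vesicle traffic 17 fell, with a median of -0.55, and of 15 channels and transporters 9 fell, with a median of -0.67. CLCN7, the lysosomal chloride-proton exchanger, was at 89.6, 87.8 and 85.8 CPM against 46, 43.3 and 43.4 CPM, with both groups tight (log2 fold change -0.99, adjusted p = 1.2e-04). VPS35L, a subunit of the retriever recycling complex, fell from 79.7 ± 3.51 to 48 ± 1.13 CPM (adjusted p = 4.5e-04). ABCC1, the multidrug resistance exporter MRP1, was at 546, 558 and 555 CPM against 361, 289 and 315 CPM (log2 fold change -0.78, adjusted p = 0.0014), and ABCA3, a lipid transporter of lamellar bodies, fell by 0.66 (adjusted p = 0.0045). Of 27 tested metabolic enzymes 18 fell and 1 rose, NME4, with a median of -0.65. TXNDC11 of the endoplasmic reticulum fell by 0.82 and PDXDC1, a decarboxylase with duplicated partial copies, by 0.75 (adjusted p = 0.001 and 3.6e-04).

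Lists for RNA and protein turnover and for cilia had medians from -0.43 to -0.39. In RNA processing and decay 9 of 15 fell (median -0.39), led by THUMPD1, a cofactor of transfer RNA acetylation, from 67.6 ± 0.443 to 41.4 ± 2.4 CPM (adjusted p = 6.8e-04) and the poly(A) ribonuclease PARN from 87.1 ± 1.25 to 49.9 ± 5.06 CPM (adjusted p = 8.2e-04). The exonuclease ERI2 fell by 0.53 (adjusted p = 0.0077). In translation 7 of 12 fell (median -0.39), including the ribosomal protein RPS15A by 0.47, the histidine methyltransferase METTL9 by 0.52 and EEF2K, the kinase of elongation factor 2, by 0.50 (adjusted p = 0.0036, 0.0056 and 0.0081). RPS15A has near-identical copies, so its count is uncertain. In the ubiquitin and SUMO list 10 of 15 fell (median -0.43), UBFD1 from 115 ± 1.73 to 70.1 ± 3.85 CPM (adjusted p = 5.5e-04). Of 11 genes of cilia and centrosome 6 fell (median -0.40), among them PKD1, the polycystin-1 gene with duplicated copies on the arm, by 0.78 (adjusted p = 0.0056) and the intraflagellar transport gene IFT140 by 0.80 (adjusted p = 0.008).

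Cell cycle genes made up the list nearest 0. Of 11 tested genes 3 fell, among them the transcription factor E4F1 by 0.49 (adjusted p = 0.0054) and the dynein regulator NDE1 by 0.40 (adjusted p = 0.048). The call of NDE1 was lost without any 1 library other than knockout replicate 1, and over the 15 alternatives its adjusted p reached 0.15. The median was -0.16. Above the arm lay 5 of the 11, beside 46 of all 528 tested members and 45.8% of all tested genes. The 5 were PKMYT1, CCNF, KIF22, TEDC2 and PPP4C. CCNF lost that call without any 1 library other than knockout replicate 2 (adjusted p up to 0.16), and TEDC2 without control replicate 1 or 3 or knockout replicate 2 (up to 0.078). The chromosome-arm kinesin KIF22 was at 100, 108 and 84.9 CPM against 98.7, 92.1 and 86 CPM, overlapping throughout. The phosphatase subunit PPP4C was at 81.2, 84.2 and 80.7 CPM against 76.6, 70.9 and 73.3 CPM, without overlap but not called (adjusted p = 0.15). PLK1, the mitotic polo kinase, was at 146, 148 and 135 CPM against 150, 99.5 and 108 CPM (adjusted p = 0.25), and among the 15 alternatives it was called lower in 1, without knockout replicate 1.

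The intervals known for recurrent deletions showed the shift as well. In 16p13.11, 9 of 15 genes fell with a median of -0.56, including NOMO1, a membrane protein of the endoplasmic reticulum, by 0.50 (adjusted p = 0.0026). NOMO1 has near-identical copies, so its count is uncertain. In 16p11.2, 9 of 23 fell with a median of -0.41, including the phosphatidylinositol synthase CDIPT by 0.76 (adjusted p = 0.0013). Of the 23, 5 lay above the arm, beside 46 of all 528 tested members and 45.8% of all tested genes. In the neighbourhood of the alpha-globin genes 6 of 9 fell with a median of -0.41.

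For 12 complexes and pathways, the short-arm members were set beside the partners encoded on other chromosomes. The short-arm median was the lower in all 12, and in 11 or 12 when 1 library was left out. The counts of these sets stand beside 39.8% lower and 0.568% higher over all tested members. Over all tested genes 11.5% were lower and 8.21% higher. In the set of TSC, GATOR1 and mTORC1, the growth control pathway, 3 of 3 short-arm genes fell: TSC2, the GTPase-activating subunit, from 100 ± 2.59 to 61.6 ± 5.74 CPM (adjusted p = 0.0013), the GATOR1 subunit NPRL3 by 0.42 (adjusted p = 0.0073) and the mTOR subunit MLST8 by 0.45 (adjusted p = 0.024). The call of MLST8 was lost without any 1 of 5 libraries, all but knockout replicate 1, and over the 15 alternatives its adjusted p reached 0.083. Of 9 partners elsewhere edgeR called 0, with 3 at an unadjusted p under 0.05 and 2 called by DESeq2, and their median was -0.12. AXIN1, the scaffold of the beta-catenin destruction complex, was at 40.2, 44.2 and 49.8 CPM against 32, 26.8 and 25.9 CPM (log2 fold change -0.66, adjusted p = 0.0068), and 1 of 7 partners was lower, with a median of 0.01. In respiratory complex I the subunits NDUFB10 and NDUFAB1 fell by 0.46 and 0.68 (adjusted p = 0.0058 and 0.0027), where 1 of 35 partners was lower and the median was 0.03. UQCRC2 stood at -0.84 against a median of 0.03 for 8 other genes of complex III, and ATP6V0C at -0.55 against -0.01 for 14 other genes of the proton pump.

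In other sets some partners elsewhere rose, as did 8.21% of all tested genes. The elongin subunit ELOB fell by 0.51 (adjusted p = 0.0066), while 2 of its 7 partners rose and their median was 0.18. The short-arm ribosomal genes RPS2 and RPS15A had a median of -0.35, and 6 of 28 other small-subunit genes rose with a median of 0.25. Of 5 Fanconi and structure-specific nuclease genes on the arm 4 fell (ERCC4, SLX1A, PALB2 and RMI2) with a median of -0.65, while 4 of 11 elsewhere rose with a median of 0.39. SLX1A has a near-identical copy, SLX1B. ERCC4 has its obligate partner in ERCC1, on chromosome 19. ERCC1 rose by 0.70 on the log2 scale, from 81.3 ± 3.16 to 132 ± 5.14 CPM (adjusted p = 6.0e-04). ERCC1 was picked outside the rule for named genes. Its value was the highest of the 11 elsewhere, which ran from -0.10 to 0.70. PALB2 lost its call without control replicate 1 or 2 or knockout replicate 2, and RMI2 without any 1 library other than control replicate 3. Over the 15 alternatives their adjusted p reached 0.057 and 0.14. In the list drawn up for histone methyltransferase and acetyltransferase complexes, which need not hold every such gene, all 4 short-arm genes fell (CREBBP, KAT8, SETD1A and PAGR1, median -0.52). Of the 14 partners in that list 1 fell and 3 rose, with a median of 0.05. SETD1A and PAGR1 lost their calls without control replicate 1 or 2 or knockout replicate 2 or 3, and PAGR1 also without control replicate 3. Over the 15 alternatives their adjusted p reached 0.085 and 0.12.

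ALDOA, at -0.89, lay below the median of -0.03 of 14 other glycolysis genes, which included 2 falls and 1 rise. The mitotic kinase and cyclin genes PLK1, PKMYT1 and CCNF had 0 of 3 called by edgeR (0 at an unadjusted p under 0.05, 0 by DESeq2) and a median of 0.02, beside 4 of 13 higher and a median of 0.29 elsewhere. The EIF3 pair EIF3C and EIF3CL had a median of 0.21, beside 3 of 12 higher and a median of 0.23. Beside these counts, 11.5% of all tested genes were lower and 8.21% higher. The differences between short-arm genes and partners were not tested.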

How the data were processed

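Total RNA of 6 NCI-H1299 libraries had been sequenced, and titles gave 3 as control and 3 as IGF2BP3 knockout. Trimming was done with Cutadapt, alignment with HISAT2 and quantification with StringTie, per the labels' protocols. Versions 2.0.4 of HISAT2 and 1.3.4d of StringTie, the tool edgeR and the build GRCh38 come from the submitters' processing notes. Annotation release and strand setting: not given in the sources used here. The table the authors deposited holds whole read counts per gene and library, not normalized, and FPKM values, which the authors scaled for gene length and reads. Gene positions and symbols were taken from it. Even numbers made up 69.9% to 71.0% of the counts between 4 and 10 in a library, and 49.5% to 50.1% of those over 100, so both mates of a pair may have been counted and independent fragments are fewer than counts.

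The filter was filterByExpr with a minimum count of 10 and a minimum total of 15. TMM scaling and the quasi-likelihood test of edgeR 4.0.16 (R 4.3.3) followed, on genotype alone, with a Benjamini-Hochberg threshold of 0.05 over 20134 genes. CPM are counts scaled by TMM-adjusted totals. A second fit took scaling from the short-arm members alone. For library medians 0.5 CPM was added. The fits were tested on simulated data. Replicates of a group differed by more than sampling noise (smallest chi-square per degree of freedom 13.5). Promoters came from a RefSeq table (GRCh38.p14).

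The members and the lists were chosen with earlier results of these data known. Named genes were the 8 lowest and 8 highest called log2 fold changes with at least 5 CPM and a symbol, the 8 largest departures in each direction with at least 20 CPM, both with groups that do not overlap, the 6 highest by FPKM, up to 3 called genes per function list and every short-arm gene of a partner list; a few genes that this rule names are not reported here. Alternatives were DESeq2 1.42.0, other scalings, limma 3.58.1 on log2(FPKM + 1) and limma-voom, other filters, a replicate block and leaving out each library.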

Additional observations from a re-analysis of the deposited data

Results flagged for a closer look

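Of the 380 rows of the arm under the count minimum, 1 was at 0 in every control and had at least 3 counts in each knockout library. The reverse pattern was not looked for, and rows off the arm were not searched. ZG16, a secretory granule lectin (ENSG00000174992, chromosome 16 from 29778256 to 29782973, plus strand, protein coding), had counts of 0, 0 and 0 in the controls and 4, 4 and 8 in the knockout, a sum of 16. It stood out as a signal in rows that the comparison does not use, above the level in the controls. The sums are small, and no test was made. All 3 knockout counts are even, so if both mates of a pair were counted, the fragments are fewer still.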

How the results depend on the processing

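The median of the members minus that of all other genes stayed between -0.51 and -0.42 in the main analysis and all 15 alternatives. The number of members called lower, 210, ran from 136 to 228 when 1 library was left out (136 without control replicate 2), and 124 of the 210 were called in all 6 of those fits. Calls higher, 3, became 5 with DESeq2, 5 with quantile normalization and 1 without a filter, and ran from 1 to 6 without 1 library. The median of -0.47 became -0.38 on log2(FPKM + 1) and -0.43 with quantile normalization, and ran from -0.49 to -0.46 without 1 library. Members above the arm, 46, ran from 31 to 50 without 1 library, and those below, 59, from 35 to 78 (35 without control replicate 1, 37 without control replicate 2). The difference between the highest and lowest level bins, -0.08, was -0.37 on log2(FPKM + 1), 0.04 with limma-voom and 0.01 with a replicate block, and ran from -0.14 to 0.02 without 1 library. Runs below 0 numbered 12 of 12 on log2(FPKM + 1), where fewer members were tested. Members that overlap no other row, a subset added after seeing the data, gave 92 lower, 24 above and 26 below, being fewer genes.

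With the replicate number as a block, 180 members were lower and 2 higher, 38 above and 49 below. Same-numbered libraries did not deviate together (correlations 0.03, -0.08 and -0.01). With 3 libraries per group, these values cannot settle whether the numbers pair the samples. CCNF, which sets the median of the mitotic kinases (0.02), was -0.01 with limma-voom and -0.01 with the block, and both ran from -0.22 (without knockout replicate 1) to 0.18 with 1 library left out. SLX4 was 0.01 on log2(FPKM + 1) and 0.04 with quantile normalization, and ran from -0.07 to 0.04. The lowest values of the next genes are those without knockout replicate 1. EIF3CL ran from -0.08 to 0.40, EIF3C from -0.04 to 0.32 (their median from -0.06 to 0.35) and POLR3K from -0.03 to 0.25. The cause of these changes was not tested. Scaling on genes outside chromosomes 16 and Y gives no arm-scaled value, and a mean count of at least 100 leaves no lowest level bin.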
